A study of Mus musculus with 3 samples.

Results

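The proteasome subunit genes were taken as all genes with a named probe set whose mouse symbol starts with Psma, Psmb, Psmc or Psmd and a number, leaving out the immunoproteasome genes Psmb8, Psmb9 and Psmb10. The rule found 36 of the 19505 named genes, each with 1 probe set. Psmc3ip met its letters but encodes a cofactor of meiotic recombination, so 35 genes are described as subunits, among them the assembly chaperones Psmd5, Psmd9 and Psmd10. Proteasome genes without a named probe set were not analysed here.

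The samples were mouse CD8 T cells, activated by CD3 and CD28 stimulation and cultured with Tc1 cytokines, which steer them toward interferon-gamma-producing killer cells. They were kept with no added cholesterol (control), with 0.5 µg/ml or with 0.75 µg/ml cholesterol, and total RNA of each culture was hybridised to 1 whole-transcript array. The labels give no strain, animal, carrier or duration, so cholesterol and any carrier cannot be told apart. With 1 array per condition there is no replicate error, no test and no p-value, and every difference below compares single arrays.

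The proteasome degrades proteins that carry ubiquitin chains. Its barrel-shaped core particle is built of outer rings of alpha subunits, which gate the entrance, and inner rings of beta subunits, some of which cut the protein chain. A regulatory particle caps the barrel: its base holds a ring of ATPases that unfold the substrate, and its lid removes the ubiquitin. In activated CD8 T cells interferon-gamma induces the immunoproteasome subunits, which replace catalytic beta subunits and change the peptides available to MHC class I. In mammals the transcription factor NRF1, the product of Nfe2l1, drives the subunit genes together when proteasome capacity falls short, through antioxidant response elements in their promoters.

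Because the subunit genes are known to be driven together, their promoters were read for the core of that element, TGACNNNGC on either strand, in the 250 bases before the start. Promoters came from the RefSeq-based table of GRCm38.p6, which matched 29 of the 36 genes with 31 promoters. The core was present in 4 of the 30 promoters of subunits (13.3%), against 10.2% of all 32851 promoters, and in 0 of the 6 promoters of immunoproteasome and Psme1 or Psme2 genes. The letters CCAAT, on either strand, were in 12 of the 30 (40.0%) against 33.8% of all promoters. The promoters with the element core are shown with its letters in capitals, each 5′ to 3′ on the gene's own strand, and that of Psmd6, the gene with the highest difference below, is shown as one without it. They lie at chr11:70525107-70525356 (Psmb6, plus strand), chr14:45329574-45329823 (Psmc6, plus strand), chr11:107479278-107479527 (Psmd12, plus strand), chr5:123227940-123228189 (Psmd9, plus strand) and chr14:14120946-14121195 (Psmd6, minus strand).
Psmb6: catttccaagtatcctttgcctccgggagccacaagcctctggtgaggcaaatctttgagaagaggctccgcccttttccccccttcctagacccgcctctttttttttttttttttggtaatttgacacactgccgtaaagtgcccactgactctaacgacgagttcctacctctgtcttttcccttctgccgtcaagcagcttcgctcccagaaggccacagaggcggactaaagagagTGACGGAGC
Psmc6: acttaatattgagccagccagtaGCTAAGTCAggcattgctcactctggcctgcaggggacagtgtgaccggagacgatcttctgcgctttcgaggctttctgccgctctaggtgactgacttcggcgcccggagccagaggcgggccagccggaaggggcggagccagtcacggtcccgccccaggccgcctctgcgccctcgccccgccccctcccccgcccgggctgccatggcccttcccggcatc
Psmd12: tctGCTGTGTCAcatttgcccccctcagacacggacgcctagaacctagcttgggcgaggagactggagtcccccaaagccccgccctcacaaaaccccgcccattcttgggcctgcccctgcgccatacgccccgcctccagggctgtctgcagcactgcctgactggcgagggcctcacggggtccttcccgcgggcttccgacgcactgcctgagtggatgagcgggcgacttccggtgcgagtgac
Psmd9: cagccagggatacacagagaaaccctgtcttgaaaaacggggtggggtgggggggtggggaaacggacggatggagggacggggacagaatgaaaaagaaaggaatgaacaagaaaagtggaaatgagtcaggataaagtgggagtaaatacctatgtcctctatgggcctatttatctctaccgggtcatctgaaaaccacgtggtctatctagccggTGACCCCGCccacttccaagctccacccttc
Psmd6: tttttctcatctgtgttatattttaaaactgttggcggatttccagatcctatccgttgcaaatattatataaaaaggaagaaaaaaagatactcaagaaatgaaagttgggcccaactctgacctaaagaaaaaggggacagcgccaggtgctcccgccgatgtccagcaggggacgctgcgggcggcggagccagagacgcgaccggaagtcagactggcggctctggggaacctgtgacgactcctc
A match is a description of letters and not a bound site, and no match says only that these letters are not in this window.

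Median intensities of the 3 arrays lay between 32.4 and 33.0. Intensities up to 102 are called background, since on no array did the 95th percentile of negative-control probe sets exceed that level. The T cell genes Cd8a, Cd8b1, Cd3e and Cd3g, the 4 measured of 5 listed markers, were above background on every array. Of 11 markers of other cells, 8 were measured and all were under background on every array. Their summed intensity was 156.3 in the control, 134.0 with 0.5 and 125.8 with 0.75 µg/ml cholesterol. Since every value in these sums was under background, they cannot show a change in the share of other cells. In bulk RNA a change in the cells' make-up and a change in RNA per cell cannot be told apart. Of the 35 subunit genes 33 were above background on all arrays. The exceptions were Psma8, the testis form of an alpha subunit, with intensities of 11.6 in the control, 10.6 at 0.5 and 11.9 at 0.75 µg/ml, and Psmb11, the thymus-specific beta subunit, with 11.3, 10.8 and 11.6 in that order.

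The design asked what each cholesterol dose changed in the cells' transcripts. At 0.75 µg/ml, 31 of the 35 subunit genes were higher than in the control and 4 were lower, while 50.0% of the 10003 genes past the level filter were higher. The dim Psma8 and Psmb11 were among the 31. Above background on all arrays, 29 of 33 subunit genes and 51.0% of genes were higher. The median log2 difference was 0.15 over the 35 subunits (quartiles 0.04 and 0.26) and 0.00 over the genes past the filter (quartiles -0.16 and 0.16). The differences were small: 6 subunit genes (17.1%) exceeded the control by at least 25%, as did 10.1% of genes past the filter and 8.07% of those above background on all arrays. The same factor downward, at least 20% below the control, was reached by 0 subunit genes and by 12.9% of genes past the filter, and a 2-fold difference by 0 subunit genes and 1.89% of genes. The genes at least 25% higher were Psmd6, Psma3, Psmd1, Psmc2, Psmd5 and Psmd9. The subunits also spread less among themselves, with an SD of 0.15 on the log2 scale over the 35 against 0.35 over the genes past the filter and 0.30 over those above background. A small spread was not particular to them. The SD was 0.17 over mitochondrial ribosomal protein genes, 0.17 over respiratory complex I subunit genes and 0.20 over cytosolic ribosomal protein genes. Among 1135 positive-control probe sets past the filter, which stand for no named gene here, 60.4% were higher, 13.7% were at least 25% higher and the median difference was 0.06.

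**Figure D1:**
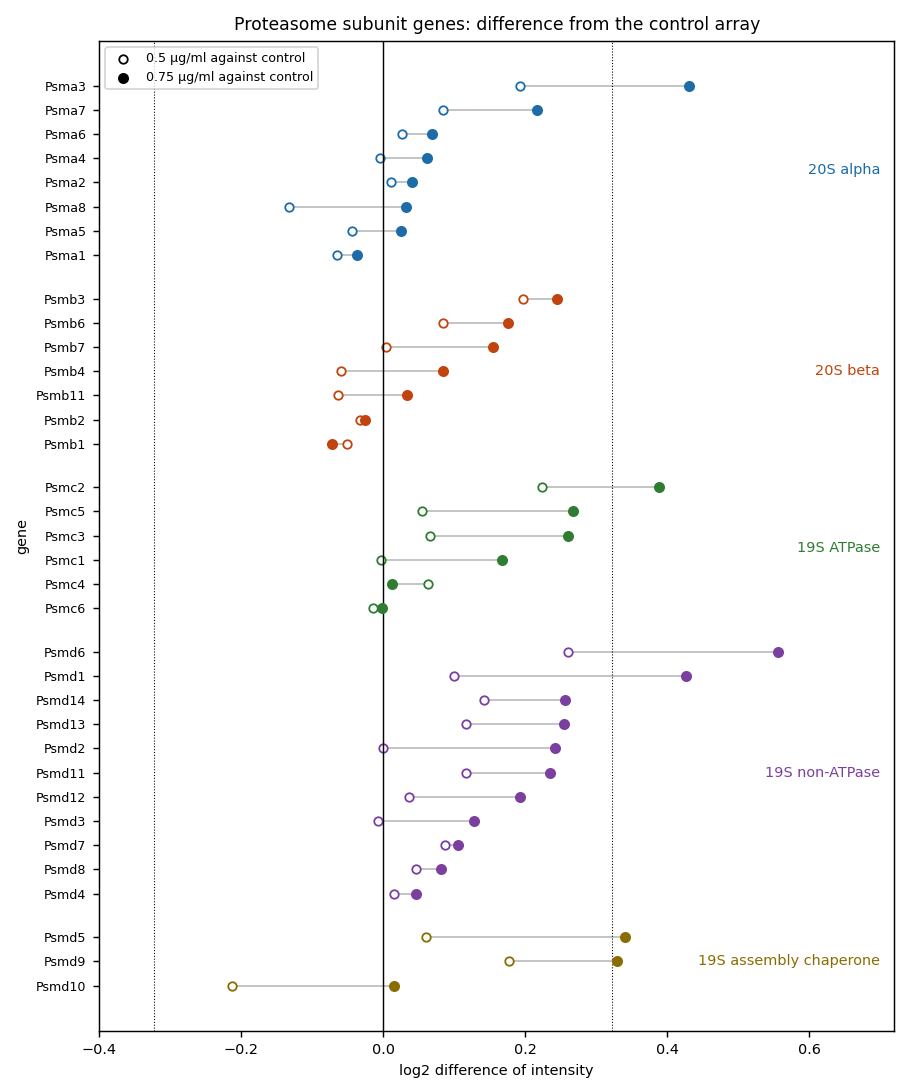
Log2 difference of intensity from the control array for the 35 proteasome subunit genes, grouped by role and ordered within each role by the difference at 0.75 µg/ml. Open points are 0.5 µg/ml and filled points 0.75 µg/ml, 1 array each, and dotted lines mark 25% above and 20% below the control. At 0.75 µg/ml 31 points lie right of 0 and 6 lie past the right dotted line.

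**Figure D2:**
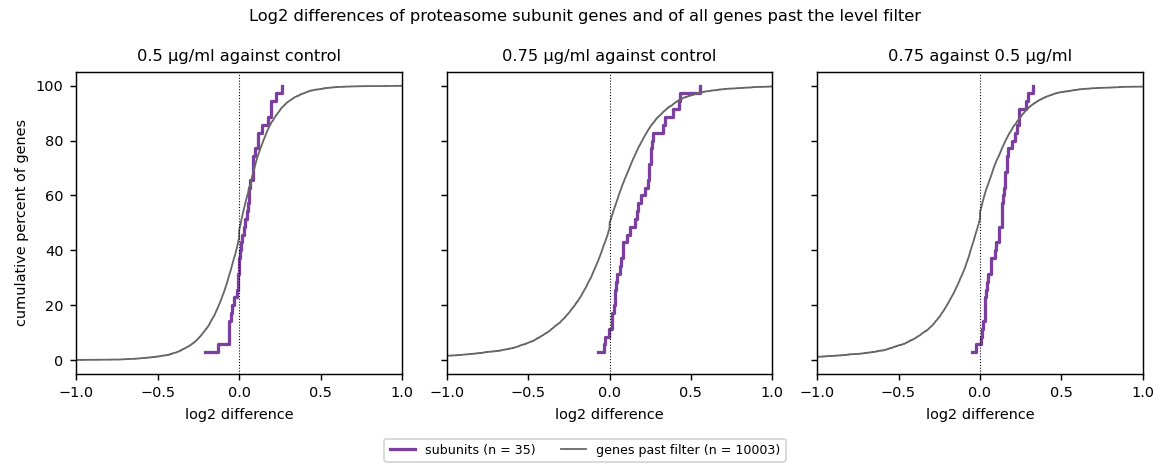
Cumulative percent of genes (y) by log2 difference (x) for the 35 subunit genes and the 10003 genes past the level filter, in each comparison, with the axis ending at -1 and 1. The subunits lie right of the other genes through most of the range at 0.75 µg/ml against the control and against 0.5 µg/ml, with medians of 0.15 and 0.13.

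At 0.5 µg/ml the subunit genes stood close to the control. Of the 35 genes 22 were higher, 12 were lower and 1, Psmd2, had the same value on both arrays, and 52.8% of genes past the filter were higher. The median log2 difference was 0.04 over the subunits (quartiles -0.01 and 0.09) and 0.01 over the genes past the filter (quartiles -0.09 and 0.12). At this dose 0 of the 35 were at least 25% above the control and 0 at least 20% below it, against 5.04% and 4.66% of genes past the filter, and 0 differed 2-fold, against 0.08%. Among genes above background on all arrays, 2.52% were at least 25% above and 2.82% at least 20% below.

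Between the doses, 33 of the 35 subunit genes were higher at 0.75 than at 0.5 µg/ml, against 46.1% of genes past the filter. Above background on all arrays, 31 of 33 subunit genes and 46.7% of genes were higher. The median log2 difference was 0.13 over the 35 (quartiles 0.04 and 0.17), against -0.01 over the genes past the filter. The exceptions were Psmb1 at -0.02 and the ATPase gene Psmc4 at -0.05. Of the 35, 1 gene, Psmd1, was at least 25% higher (2.86%, against 6.95% of genes past the filter), 0 were at least 20% lower, against 11.0%, and 0 differed 2-fold, against 1.53%. The spread over the 35 was an SD of 0.09, against 0.31 over the genes past the filter. Mitochondrial ribosomal protein, respiratory complex I and cytosolic ribosomal protein genes had SDs of 0.15, 0.16 and 0.18. This comparison shares an array with each of the other comparisons, so it is no independent check of them.

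The non-ATPase subunits of the regulatory particle, its assembly chaperones aside, lay on one side. They are lid and scaffold subunits and the ubiquitin receptor Psmd4. All 11 such genes with a Psmd symbol were above the control at 0.75 µg/ml, by a median of 0.24 on the log2 scale, against 50.0% of genes past the filter. With 0.5 µg/ml 9 of the 11 were above it, against 52.8% of genes, with a median of 0.09, or 0.05 after quantile normalization. Psmd6, which encodes a lid subunit, had an intensity of 386 without cholesterol, 462 with 0.5 and 567 with 0.75 µg/ml, so 0.75 µg/ml was 1.47-fold and 0.5 µg/ml 1.20-fold over the control. Its difference at 0.75 µg/ml was above that of 97.4% of genes past the filter. Psmd1, which encodes the largest scaffold of the base, had 853, 914 and 1146 in the same order and was 1.34-fold over the control at 0.75 µg/ml, with the 0.5 µg/ml array close to the control. Psmd2, the scaffold that docks ubiquitin carriers, had 1192 on both the control and the 0.5 µg/ml array and 1409 at 0.75 µg/ml.

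Psmd14 encodes the lid's deubiquitinase and had 517, 571 and 618 across the control, 0.5 and 0.75 µg/ml, each dose above the control. Its lid partner Psmd7 had 2414, 2566 and 2597, with both doses close together. Psmd11, which encodes a lid subunit that clamps lid, base and core, had 504, 546 and 593 in that order. The lid genes Psmd12 (842, 864 and 962) and Psmd13 (1491, 1617 and 1779) were likewise highest at 0.75 µg/ml, with log2 differences from the control of 0.19 and 0.25. The lid genes Psmd3 and Psmd8 differed by 0.13 and 0.08 at 0.75 µg/ml, and Psmd4, which encodes a receptor for ubiquitin chains, by 0.05.

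The ATPase genes of the base had a median log2 difference of 0.21 at 0.75 µg/ml and of 0.06 at 0.5 µg/ml, and they were uneven. Psmc2 had 839.97, 981 and 1099.8 across the control, 0.5 and 0.75 µg/ml, or 1.31-fold over the control at 0.75 µg/ml. Psmc3 had 789.99, 827 and 947 and Psmc5 had 266, 276 and 319.7, both close to the control at 0.5 µg/ml and about as far above it as each other at 0.75 µg/ml (0.26 and 0.27). Psmc1, with 588, 587 and 660.4, differed from the control at 0.75 µg/ml (0.17) but hardly at 0.5 µg/ml (0.00). By contrast Psmc4 (783, 818 and 789) and Psmc6 (505, 499.8 and 504) differed from the control by 0.01 and 0.00 at 0.75 µg/ml, although all 6 ATPases sit in the same ring. Psmc6 is also a gene whose promoter held the element core shown above. The other genes with the core, Psmb6, Psmd12 and Psmd9, differed from the control by 0.18, 0.19 and 0.33 at 0.75 µg/ml. A link between the core and the differences was not tested.

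The chaperones that assemble the base are encoded by Psmd5, Psmd9 and Psmd10. Psmd5 had 267, 278 and 338 across the control, 0.5 and 0.75 µg/ml, and Psmd9 had 141, 159.6 and 177. They were 1.27-fold and 1.26-fold over the control at 0.75 µg/ml, so both stood just past a 25% difference. Psmd10, whose product is known as gankyrin, had 222, 192 and 224, so its 0.75 µg/ml array was close to the control and its 0.5 µg/ml array was the lowest of all 35 against the control, at -0.21.

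The core particle's alpha genes had a median log2 difference of 0.05 at 0.75 µg/ml and of 0.00 at 0.5 µg/ml, or -0.03 there after quantile normalization. Psma3 stood out from the other alpha genes, with 718, 821 and 969 across the control, 0.5 and 0.75 µg/ml, or 1.35-fold over the control at 0.75 µg/ml. Psma7 had 762, 808 and 886 in that order, 0.22 above the control at 0.75 µg/ml. The other measured alpha genes lay within 0.07 of the control at 0.75 µg/ml: Psma1 was lower (-0.04), and Psma2 (0.04), Psma4 (0.06), Psma5 (0.02) and Psma6 (0.07) were slightly higher, as was the dim Psma8. Alpha subunits form a ring with 1 copy of each, and their transcripts did not shift by an equal amount on these arrays.

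Of the beta genes, the catalytic subunit gene Psmb5 had no named probe set and is missing here. The measured beta genes, with the dim Psmb11 among them, had a median log2 difference of 0.08 at 0.75 µg/ml and of -0.03 at 0.5 µg/ml. With dim values raised to 102 the median at 0.5 µg/ml was 0.00. At either dose 0 of the 7 were 25% above or 20% below the control (all genes past the filter: 10.1% and 12.9% at 0.75 µg/ml, 5.04% and 4.66% at 0.5 µg/ml). Psmb3, a structural subunit, had 652, 747 and 772 across the control, 0.5 and 0.75 µg/ml, with both doses above the control. The catalytic subunit gene Psmb6, which cuts after acidic residues, had 813, 862 and 918 in that order. Psmb7, the catalytic subunit that cuts after basic residues, had 1279.7, 1284 and 1424, with 0.5 µg/ml level with the control. At 0.75 µg/ml Psmb6 differed from the control by 0.18 and Psmb7 by 0.15. The structural genes Psmb1 (-0.07) and Psmb2 (-0.03) were lower at 0.75 µg/ml, and Psmb4 (0.08) was higher. The reference gene table lists pseudogenes named for Psma5, Psmb6 and Psmb7, and whether their transcripts add to these probe sets was not tested.

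The immunoproteasome genes went the other way. All 5 genes of the list were below the control on both cholesterol arrays, which share that control. They were the catalytic subunits Psmb8, Psmb9 and Psmb10 and the interferon-inducible activator genes Psme1 and Psme2. Of the 10003 genes past the filter, 4805 were lower with the 0.75 µg/ml dose and 4471 with the 0.5 µg/ml dose. The 5 genes had median log2 differences of -0.32 at 0.75 µg/ml and -0.17 at 0.5 µg/ml. Psmb9 had 1587, 1390.3 and 1047 across the control, 0.5 and 0.75 µg/ml, or 0.660-fold of the control at 0.75 µg/ml. Psmb10 had 647, 539 and 518, and Psmb8 had 2455, 2424 and 2203, so in both the 0.75 µg/ml array was the lowest. Psme2 had 1095, 1009.5 and 834, while Psme1 had 5082, 4519 and 4908, with the 0.5 µg/ml array the lowest. Of the 5 genes 2, Psmb9 and Psme2, were at least 20% below the control at 0.75 µg/ml, against 12.9% of genes past the filter, and Psmb10 was just short of it.

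Psmb9 takes the place of Psmb6 in the immunoproteasome, and Psmb10 that of Psmb7. Psmb8 takes the place of Psmb5, which had no named probe set, so that pair could not be compared. Psmb8 itself differed from the control by -0.16 at 0.75 µg/ml and by -0.02 at 0.5 µg/ml. The log2 difference of Psmb9 minus that of Psmb6 was -0.78 at 0.75 µg/ml and -0.28 at 0.5 µg/ml against the control. For Psmb10 minus Psmb7 it was -0.48 and -0.27 in that order. These compare changes and not levels, since the intensities of different probe sets are not on a common scale. Cd8a was also lower at 0.75 µg/ml, at 3313 against 4225 in the control, as was Cd8b1, at 2030.0 against 2574, while Cd3e was at 4594 against 4364, and their part in these differences was not tested.

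**Figure D3:**
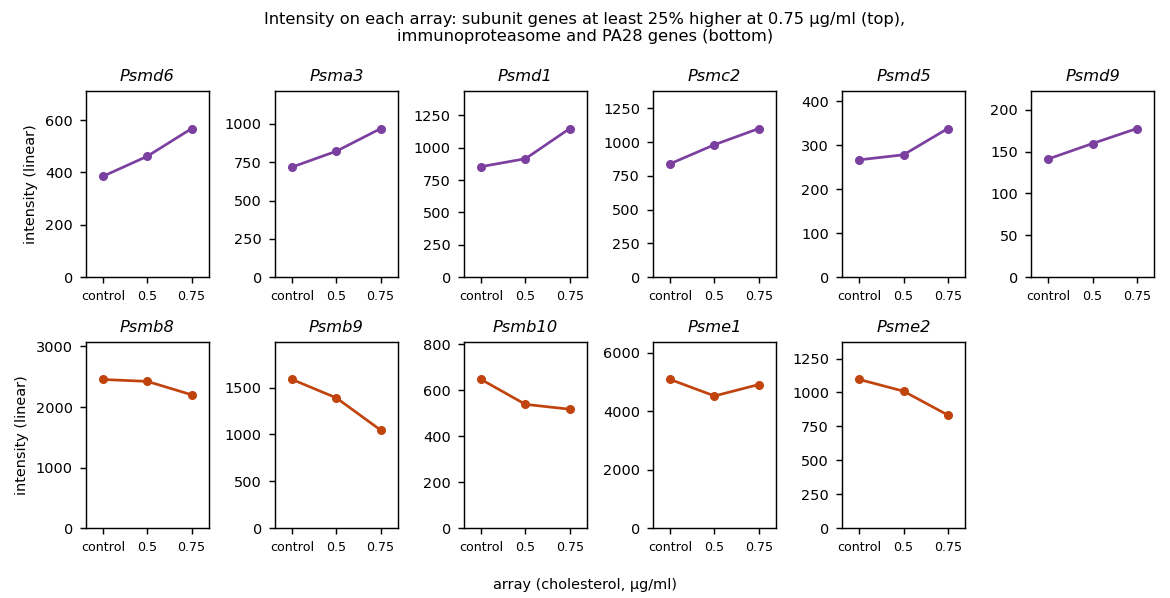
Intensity on a linear scale (y, from 0) on the control, 0.5 and 0.75 µg/ml arrays (x), 1 point per array. The top panels show the 6 subunit genes that were at least 25% above the control at 0.75 µg/ml, and the bottom panels the 5 immunoproteasome and activator genes, of which Psmb9 was at 1047 at 0.75 µg/ml against 1587 in the control.

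Other proteasome-bound proteins were mixed. Of the deubiquitinases that act on the regulatory particle, Usp14 had 128, 144 and 185 across the control, 0.5 and 0.75 µg/ml, and Uchl5 had 1079.7, 1225 and 1429, so both were highest at 0.75 µg/ml, at 1.44-fold and 1.32-fold of the control. The ubiquitin ligase gene Ube3c, whose product binds the proteasome, differed by 0.14 at 0.75 µg/ml. Sem1, which encodes the smallest lid protein, had 908, 942 and 951 in the same order. Among activators and regulators, Psme3, which encodes the nuclear activator related to Psme1 and Psme2, differed by 0.30 at 0.75 µg/ml and 0.12 at 0.5 µg/ml, and Psme4, another nuclear activator, by 0.29 and 0.35. The inhibitor gene Psmf1 differed by -0.12 at each dose, Ecpas, which encodes a scaffold that binds the complex, by -0.09 and 0.02, and Akirin2, whose product carries proteasomes into the nucleus, by 0.13 and 0.21. Of these 5 genes, 0 were at least 25% above the control at 0.75 µg/ml, against 10.1% of genes past the filter, and 1, Psme4, was at 0.5 µg/ml, against 5.04%.

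Of the chaperones that assemble the core particle, the 3 above background on all arrays were higher than the control at both doses, by less than 25% at 0.75 µg/ml. Of the 5 measured, 3 were thus higher at each dose, against 50.0% of genes past the filter at 0.75 µg/ml and 52.8% at 0.5 µg/ml. At 0.5 µg/ml 1 of the 5, Psmg2, reached 25%, against 5.04% of genes, and at 0.75 µg/ml 0 did, against 10.1%. Pomp, the maturation factor, differed by 0.10 at 0.75 µg/ml and 0.06 at 0.5 µg/ml, Psmg1 by 0.06 at each dose and Psmg2 by 0.20 and 0.32. Psmg3 was listed at 45.00 on all 3 arrays and Psmg4 at 83.0 at both doses against 102.8 in the control, so Psmg3 was under background throughout and Psmg4 at both doses.

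The regulators of the subunit genes had no common direction. Nfe2l1 itself was lower, at 848, 743 and 617 across the control, 0.5 and 0.75 µg/ml, or 0.728-fold of the control at 0.75 µg/ml, while most subunit genes were higher. NRF1 is controlled largely after translation, by release from the endoplasmic reticulum and cleavage, which arrays do not measure. A part of NRF1 in the differences of the subunit genes was not tested. Ngly1, whose product strips sugars from NRF1, had 64.0, 92.8 and 72.4, and the partner gene Mafg had 39.9, 46.9 and 56.1, all under background. Of the 7 measured genes of this list, 3 were above background on all arrays: Nfe2l1, Nfe2l2 and Nfe2l3. Nfe2l2 differed from the control by 0.02 at 0.75 µg/ml and 0.26 at 0.5 µg/ml, and Nfe2l3 by 0.20 and -0.08. At 0.75 µg/ml 1 of the 7 (14.3%), the dim Mafg, was at least 25% above the control, against 10.1% of genes past the filter, and 1, Nfe2l1, at least 20% below it, against 12.9%.

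Upstream of the proteasome, Vcp, which encodes the segregase that extracts ubiquitinated proteins, had 763, 757 and 1023 across the control, 0.5 and 0.75 µg/ml, so its 0.75 µg/ml array alone was high. Its cofactor gene Nsfl1c differed by 0.31 at 0.75 µg/ml and 0.20 at 0.5 µg/ml, and the cofactor gene Faf1 by 0.04 and 0.19. The list of Vcp and its cofactors had 1 of 6 genes at least 25% above the control at 0.75 µg/ml, Vcp itself, against 10.1% of genes past the filter, and a median of 0.05. Among factors that carry ubiquitinated proteins to the proteasome, Ubqln4 differed by 0.27 and 0.25, Ubqln2 by 0.29 and 0.12 and Rad23b by 0.23 and 0.12 at 0.75 and 0.5 µg/ml, while Ubqln1 differed by -0.10 and -0.08 and the dim Ddi1 was under background, so 3 of the 5 measured were higher at each dose. At 0.75 µg/ml 0 of the 5 were 25% above or 20% below the control, against 10.1% and 12.9% of genes past the filter, and at 0.5 µg/ml 0, against 5.04% and 4.66%. Uba6, which encodes an enzyme that activates ubiquitin, differed by 0.01 and 0.21.

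**Figure D4:**
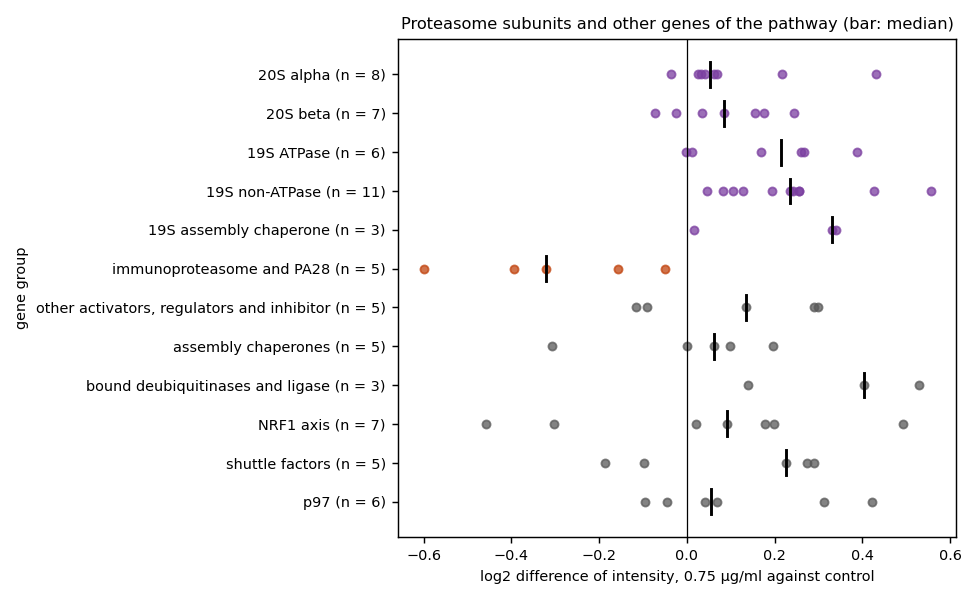
Log2 difference of intensity at 0.75 µg/ml against the control (x) for each gene of each group (y), with a bar at the group's median. The subunit groups have medians between 0.05 and 0.33, and the immunoproteasome and activator group has a median of -0.32 with all 5 genes left of 0.

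Other large complexes on the same arrays give a frame for the size of the shift. At 0.75 µg/ml against the control, 31 of 35 proteasome subunit genes were higher with a median log2 difference of 0.15, and 50.0% of genes past the filter were higher. Mitochondrial ribosomal protein genes had 52 of 75 higher with a median of 0.09, respiratory complex I subunit genes 18 of 35 (51.4%) higher with a median of 0.01, and cytosolic ribosomal protein genes 6 of 63 higher with a median of -0.16. No test of these differences was possible with 1 array per condition.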

How the data were processed

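The deposited table holds 1 linear intensity per probe set and array for 28846 probe sets. How the authors corrected background and normalized these intensities is not stated in the labels or the table. Per the labels' protocols, total RNA was extracted with Trizol and biotin-labelled by a whole-transcript sense protocol. The platform annotation names a single gene for 19572 of the 22206 transcript probe sets and several for 0, and the other 2634 were left unnamed. All 36 symbols of the rule matched the reference gene table of GRCm38.p6.

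Log2 was taken with no further normalization. Where a gene had several probe sets, as 55 did, the brightest was taken. The level filter kept 10003 genes with a mean log2 value of at least 5.44, the median over transcript probe sets, and 34 of the 36 genes passed it. Values of all 35 subunits were used whether or not they passed. Differences are of log2 intensity between 2 arrays, and genes were counted at 25% above, at 20% below (the same factor) and at 2-fold. All genes of the rule are named, as are all measured genes of the 4 lists closest to the proteasome. Of each other list up to 3 were picked, those with the largest absolute mean difference of both doses. Nfe2l2, Nfe2l3, Ubqln1 and Ddi1 are given besides these. The members and lists were chosen with earlier results of these data known. Alternatives were 2 scalings between arrays, raising dim values to 102, averaging probe sets, no filter, and a pseudocount of 16. The steps were tested on simulated data. The work used numpy 2.4.6 and pandas 2.3.3 under Python 3.11.15, with scipy 1.17.1 for correlations and matplotlib 3.10.9 for plots. The number of arrays limits the precision.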

Additional observations from a re-analysis of the deposited data

How the results depend on the processing

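No paired analysis was possible because each condition has 1 array and no result comes from a test. Over the 6 alternatives listed above, the subunits' median log2 difference ranged from 0.13 to 0.15 at 0.75 µg/ml against the control, and that of the immunoproteasome and activator genes from -0.33 to -0.31. Of these alternatives, averaging probe sets and dropping the filter could not change either median. Each of these genes has 1 probe set, and all were used whether or not they passed the filter. Raising dim values could not change the immunoproteasome and activator median either, since all 5 genes were above background. Among the subunits it altered only Psma8 and Psmb11 and left the median at 0.15. The number of subunit genes at least 25% higher at 0.75 µg/ml against the control was 5 with median centring or a pseudocount of 16, against 6 as reported. The shares of genes past the filter were 9.5% with median centring and 8.3% with the pseudocount. In each alternative 0 subunit genes were 20% lower, against 8.95% to 13.3% of genes. Against 0.5 µg/ml the count at least 25% higher was 0 with a pseudocount of 16, against 1 as reported, since Psmd1 stood just past that size. The shares of genes past the filter were 5.58% with the pseudocount and 6.95% as reported. At 0.5 µg/ml against the control the median was 0.01 after quantile normalization, with 19 of 35 higher, against 0.04 and 22 as reported. After quantile normalization 50.5% of genes past the filter were higher there, against 52.8% as reported. Without the base chaperones, Psma8 and Psmb11, a choice made after seeing the data, the median at 0.75 µg/ml was 0.16, with 26 genes higher and 4 at least 25% higher. Of genes past the filter, 50.0% were higher and 10.1% at least 25% higher. Among the 6 genes at least 25% higher as reported, Psmd5 and Psmd9 were chaperones left out here. Raising dim values to background changed the share of filtered genes at least 25% higher at 0.75 µg/ml to 6.5%, against 10.1% as reported. A cause for these shifts was not tested. Without replicates, differences of the size seen here cannot be set against array-to-array variation of the same condition.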

Other observations

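Over the 33 subunit genes above background, the log2 difference at 0.75 µg/ml against the control had a Pearson correlation of -0.27 and a Spearman correlation of -0.27 with the mean log2 intensity. The points share the same arrays and are genes, not replicates, so this is a description. Over all 7309 genes above background the Pearson correlation was 0.05.

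Psmd2 was not alone in having the same value on a pair of arrays: 718 of 22206 transcript probe sets had equal values at 0.5 µg/ml and in the control, and 691 had equal values at 0.75 µg/ml and in the control. Psmc3ip, which met the letters of the rule without being a subunit, had intensities of 119 in the control, 124 with 0.5 and 116 with 0.75 µg/ml cholesterol. The 36 genes lie on 16 chromosomes.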
